A study of Mus musculus with 16 samples.

Results

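Germ cells of wild-type mouse embryos were compared between E11.5 and E10.5 (embryonic days), the time at which these primordial germ cells (PGCs), from which sperm and eggs descend, arrive in the future gonad. They were profiled by 3′ RNA sequencing, which counts reads from the ends of polyadenylated transcripts. The comparison used the wild-type libraries labelled with these stages, 2 at E11.5 and 2 at E10.5, which are 4 of the 16 libraries of the series. Both groups had the same labelled strain, ICR:C57BL/6=1:1, and the same genotype, Dppa3(EGFP/+), from matings of wild-type females with mice carrying an EGFP reporter of Dppa3, a gene active in PGCs. The labels name no treatment for these embryos and do not give their sex. Gonads were dissected and dissociated. The protocols describe sorting by EYFP fluorescence and by an antibody against the surface antigen SSEA-1, tie neither sort to the wild-type cells, and name no sort on EGFP. Whether the 2 libraries of a stage were made from different embryos or litters is not in the labels. The p-values therefore measure only the spread between libraries, and this spread may be technical. Another 4 wild-type libraries, 2 from males and 2 from females at E13.5, entered the same fit. The 4 control libraries of floxed embryos at E11.5 (C57BL/6, Prdm1(flox/flox); Rosa26(neo-EYFP/+), from mothers given 4-OHT, a tamoxifen metabolite, at E10.5) were normalised in another table and are only set beside these values.

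In these days PGCs complete their migration from the hindgut through the dorsal mesentery and enter the genital ridges, the somatic primordia of the gonads. There they switch on genes of gametogenesis, many of which are kept silent in other cells by methylated CpG-rich promoters, and among which Dazl is a regulator needed for commitment to the germ line. On their way PGCs lie among mesenchymal cells and close to embryonic vessels filled with primitive red blood cells, whose transcripts can enter a preparation of dissociated cells. Transcripts of the germ cells are therefore described first, and those of blood and mesenchyme on their own.

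Values are in RPM, reads scaled to a fixed total of gene-assigned reads in each library, with no division by gene length. Depth, read from the spacing of low values, was 2215150 and 3123380 reads at E10.5 and 1484740 and 3512180 reads at E11.5, and 3 reads corresponded to 0.854 to 2.02 RPM in these 4 libraries. The fit covered 10749 genes and called 460 of them (4.28%), 248 with more (2.31%) and 212 with less RNA (1.97%) at E11.5 (limma on log2(RPM + 1), Benjamini-Hochberg adjusted p under 0.05). Of the called genes, 76 of the higher and 86 of the lower ones differed at least 2-fold. The counts in germ cell and pathway lists below are to be read beside the shares of 2.31% and 1.97%. For each of the 460, both libraries of a stage lay on the same side of both libraries of the other, which was also so for 46.2% of all genes tested (24% higher and 22.2% lower). The spread was estimated over all 8 wild-type libraries. Fitted on the 4 libraries alone, 79 genes were called, and without a trend of the spread with the level, 27. With median-ratio scaling 212 genes were called higher and 280 lower, so the split between rises and falls rests on the scaling. Left out in turn, each E10.5 library took the count to 105 (library 1) and 167 (library 2). Of 86 called genes among those named by rule, 31 kept their call without each of the 4 libraries in turn.

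**Figure D1:**
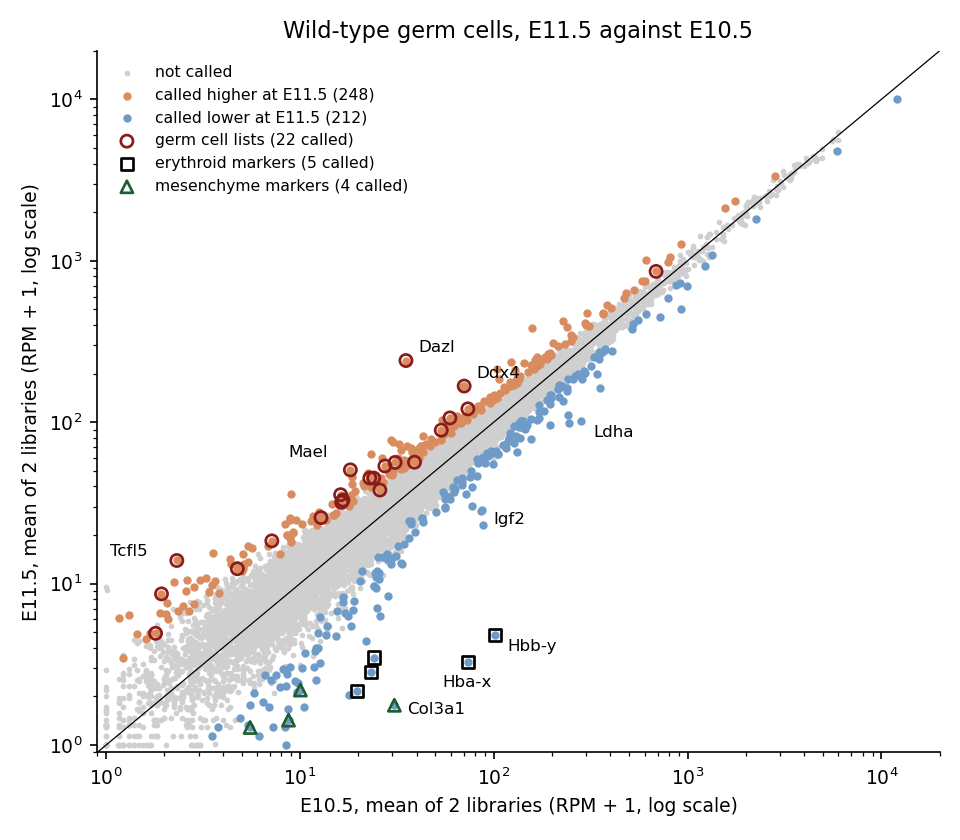
Mean level of every tested gene at E11.5 (y axis) against E10.5 (x axis), as RPM + 1 on log scales, each mean over 2 libraries; the line marks equal levels. The 248 genes called higher are orange and the 212 called lower blue, with called members of the germ cell lists circled, erythroid markers boxed and mesenchyme markers in triangles.

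Many germ cell genes are known for CpG-rich promoters that DNA methylation can silence and, in part, for the E-box CACGTG, to which MAX-containing repressor complexes bind. Stretches just before the starts of 5 genes that rose are therefore shown: the 250 bases before the start of Dazl with each CG in capitals (20 of them), and windows before Mael, Mov10l1, Hormad1 and Tex12 with CACGTG in capitals. All are 5′ to 3′ along the gene, from RefSeq on GRCm38.p6, and lie outside the bounds of the gene itself.
Dazl (chr17:50293621-50293870, minus strand): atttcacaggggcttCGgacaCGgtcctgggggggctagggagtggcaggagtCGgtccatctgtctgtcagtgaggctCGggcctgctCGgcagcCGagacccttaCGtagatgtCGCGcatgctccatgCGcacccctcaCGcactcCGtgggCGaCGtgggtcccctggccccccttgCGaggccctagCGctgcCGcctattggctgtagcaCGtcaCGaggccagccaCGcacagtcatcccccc
Mael (chr1:166238935-166238994, minus strand): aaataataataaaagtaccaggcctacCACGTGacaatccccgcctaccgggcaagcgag
Mov10l1 (chr15:88982744-88982780, plus strand): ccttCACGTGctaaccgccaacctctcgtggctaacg
Hormad1 (chr3:95559593-95559652, plus strand): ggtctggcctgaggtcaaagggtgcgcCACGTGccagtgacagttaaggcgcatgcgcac
Tex12 (chr9:50561329-50561388, minus strand): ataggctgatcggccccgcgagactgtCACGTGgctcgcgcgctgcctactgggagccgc

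CACGTG, which reads the same on both strands and can overlap ACGTGC, was in the 300-base promoter (250 bases before to 50 after the start) of 9 of the 21 germ cell list members (of 22) called higher that had a RefSeq promoter, or 42.9%. These were the 4 shown and Ddx4, Fkbp6, Stag3, Stk31 and 2410076I21Rik. It was also in 14 of the 42 (of 53) list members tested, not called and with a promoter, or 33.3%, in 12.7% of the 8411 tested genes with a promoter and in 8.09% of all 27025 genes with one. The E2F-type motif GCGGGAA, searched on both strands, was in 28.6% of the list members called higher, 21.4% of those not called and 10.8% of the tested genes with a promoter. ACGTGC, on both strands, was in 23.8%, 28.6% and 10.4% of the same sets. The Dazl stretch shown holds no CACGTG. The median number of CG per promoter was 24 in the members called higher, 23 in the tested genes and 8 in all genes with a promoter. The motif shares of the list members that rose and of those not called were not tested against each other, and a match is a stretch of letters, not a binding site.

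Several genes of germline RNA-binding proteins and of the piRNA pathway rose, led by Dazl, while most listed members were not called. (piRNAs are small RNAs that guide PIWI proteins to silence transposons.) Of 35 listed genes 31 passed the filter on low values, and 12 of these were called higher, 19 were not called and 0 were called lower, beside 2.31% and 1.97% of all genes. Members and lists were chosen with earlier results of these data known, so the shares are not an independent comparison. The median log2 fold change of the 31 was 0.36, against 0.02 over all genes tested. Dazl (chromosome 17, 50279393 to 50293620, mm10), whose protein binds the 3′ ends of germ cell messages, was at 32.95 and 35.5 RPM at E10.5 against 259 and 221 RPM at E11.5. Both E11.5 libraries lay far above both E10.5 libraries (log2 fold change 2.77 ± 0.10, SE, limma, adjusted p = 3.17e-18). On the log2(RPM + 1) scale this was the largest rise of any called gene. Genes close to the floor at E10.5 had larger ratios of mean RPM, as did Tcfl5 (9.80-fold) against Dazl (7.01-fold). Ddx4 (chromosome 13, 112598333 to 112652633), the Vasa-type RNA helicase that marks germ cells settling in the gonad, was at 68.6 and 70.1 RPM at E10.5 against 203 and 130.1 RPM at E11.5, so that its E11.5 libraries differed more from each other than its E10.5 libraries (1.22 ± 0.13, adjusted p = 4.98e-07). Mael, a nuage protein needed for transposon silencing, was at 14.9 and 19.5 RPM at E10.5 against 45.8 and 53.5 RPM at E11.5 (1.48 ± 0.14, adjusted p = 4.96e-08).

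Tex101, a surface glycoprotein gene of germ cells, was close to the floor at E10.5, at 0.903 and 0.960 RPM, and at 6.73 and 8.54 RPM at E11.5. Its rise was called (2.15 ± 0.31, adjusted p = 4.68e-05). Fkbp6, a co-chaperone in piRNA loading, was at 74.0 and 71.1 RPM at E10.5 against 114 and 126 RPM at E11.5. Tex19.1, which restrains retrotransposons in germ cells, was at 62.7 and 54.1 RPM at E10.5 against 121 and 90.0 RPM at E11.5. Both rose (log2 fold changes 0.72 and 0.83, limma, adjusted p = 0.000456 and 0.000458). The other called members, named here outside the rule because they complete the count, were the helicase gene Mov10l1, the tudor domain genes Tdrd12 and Tdrkh, the nuage gene Asz1, Gtsf1 and the kinase-like gene Stk31, with log2 fold changes from 0.54 (Stk31) to 1.59 (Gtsf1). Piwil2, which encodes a PIWI protein, was at 46.5 and 40.3 RPM and then 62.0 and 43.3 RPM and was not called (limma, adjusted p = 0.418). The list had 8 members called higher without E10.5 library 1.

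Of 18 tested genes of gametogenic transcription factors and cofactors, 5 were called higher and 0 lower (median log2 fold change 0.24). Tcfl5 (chromosome 2, 180621956 to 180642691), a basic helix-loop-helix factor of the male germ line, went from 1.35 and 1.28 RPM to 14.1 and 11.7 RPM, a 9.80-fold ratio of mean RPM (2.58 ± 0.24 on the log2(RPM + 1) scale, limma, adjusted p = 3.89e-08). Scml2, a germline Polycomb protein encoded on the X chromosome, was at 4.97 and 7.36 RPM at E10.5 against 18.9 and 15.9 RPM at E11.5. Sohlh2, which regulates the differentiation of spermatogonia and oocytes, was at 26.6 and 26.3 RPM at E10.5 against 48.5 and 56.7 RPM at E11.5, and Dmrt1, a regulator of germ cell differentiation and sex, at 20.8 and 25.3 RPM at E10.5 against 39.7 and 48.4 RPM at E11.5. These 3 rose with log2 fold changes of 1.38, 0.96 and 0.91 (limma, adjusted p = 9.40e-05, 0.000107 and 0.00109). The homeobox gene Rhox5 rose by less, 0.32 on the log2 scale, from 697 and 677 RPM to 814 and 902 RPM (adjusted p = 0.0319). Taf4b, a germ cell TFIID subunit gene, was at 53.7 and 54.1 RPM at E10.5 against 39.7 and 45.6 RPM at E11.5, without a call. The list had 3 members called without E10.5 library 1, with Dmrt1 at adjusted p = 0.0578. Rhox5 lost its call without E10.5 library 1 or 2 or E11.5 library 2 (adjusted p = 0.166 to 0.192).

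Among meiosis genes 5 of 26 tested were called higher and 0 lower (median log2 fold change 0.28). The 5 encode parts of the meiotic chromosome: Stag3 and Smc1b, cohesin subunits; Hormad1, an axis protein; Tex12, of the central element of the synaptonemal complex; and 2410076I21Rik, named Rec114 in RefSeq, a factor of double-strand break formation. Stag3 was at 54.6 and 50.6 RPM at E10.5 against 84.2 and 92.2 RPM at E11.5 and Hormad1 at 13.54 and 17.3 RPM at E10.5 against 31.7 and 30.2 RPM at E11.5. Tex12 was at 2.71 and 4.80 RPM and then 10.8 and 12.0 RPM, and 2410076I21Rik at 12.2 and 18.2 RPM and then 36.4 and 32.7 RPM. These 4 rose with log2 fold changes from 0.73 (Stag3) to 1.41 (Tex12). Smc1b was at 31.1 and 18.6 RPM at E10.5 against 38.4 and 35.6 RPM at E11.5, with its E10.5 libraries far apart (log2 fold change 0.60 ± 0.17, limma, adjusted p = 0.0398). Stra8, the retinoic acid target that starts meiosis, was listed at 0 and 0.320 RPM at E10.5 and at 0 in both E11.5 libraries, at or under the limit of 3 reads, and Dmc1, the meiotic recombinase gene, was at 7.67 and 5.44 RPM and then 6.73 and 9.68 RPM. Neither was called. Hormad1, Tex12 and 2410076I21Rik lost their calls without E10.5 library 1 (adjusted p = 0.0523, 0.0606 and 0.0823), which left 2 members called. Smc1b lost its call without E10.5 library 2 or either E11.5 library (adjusted p = 0.0726 to 0.502).

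**Figure D2:**
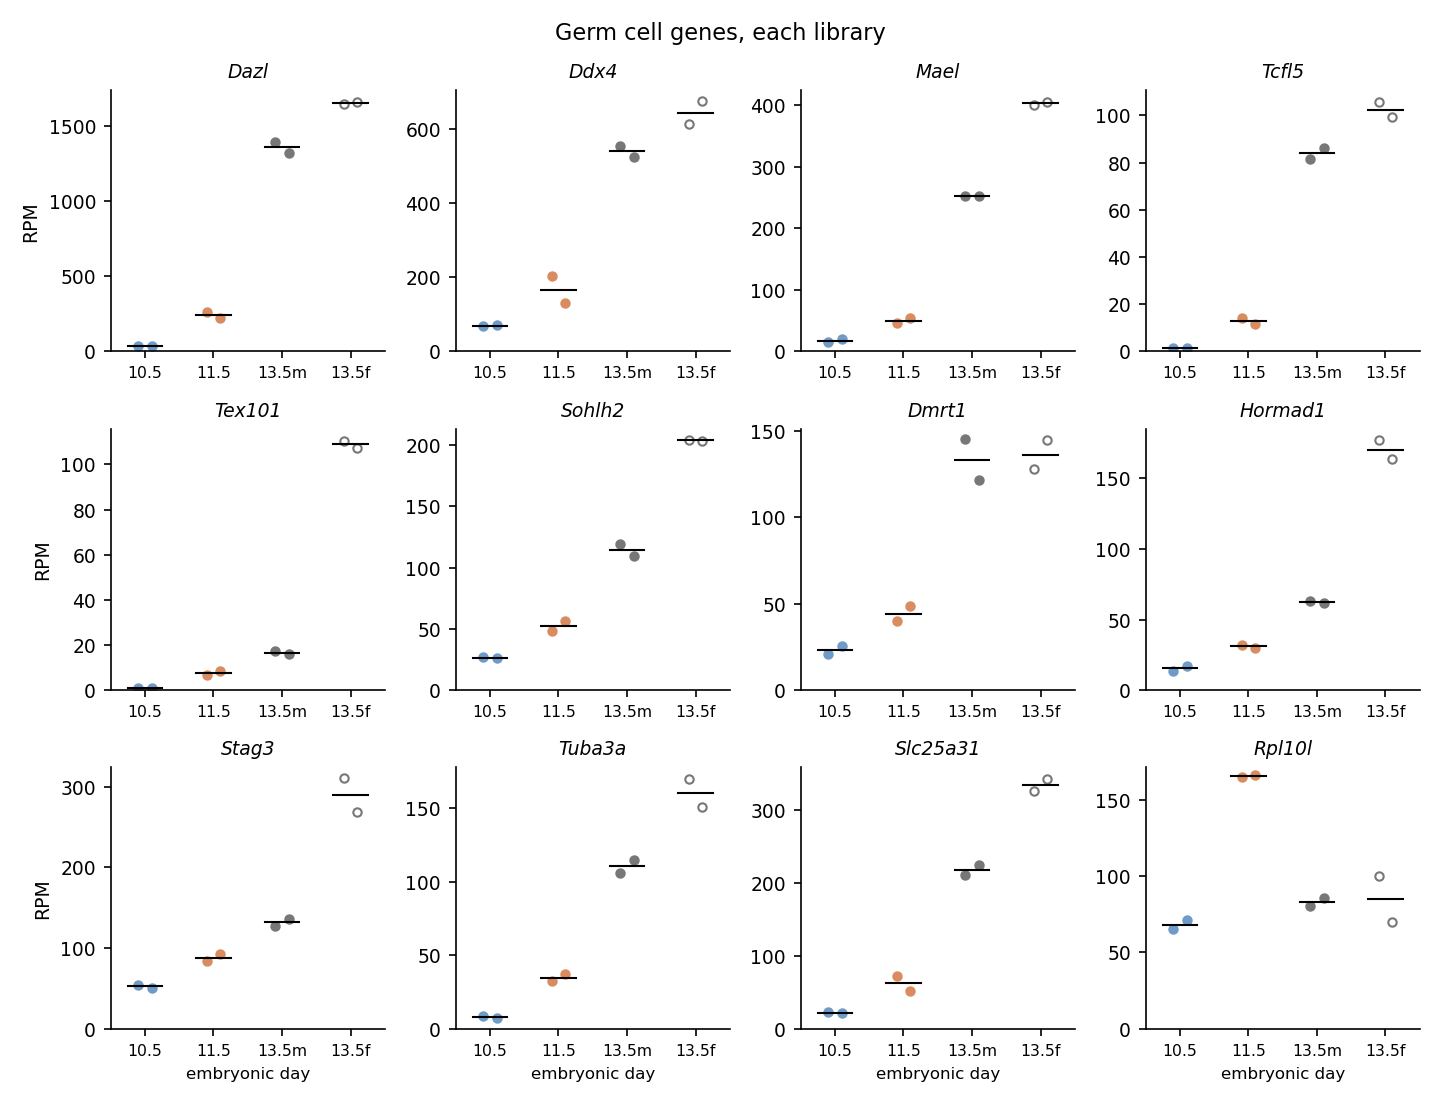
Level in RPM of 12 genes that rose, in each wild-type library of the 3 stages (E13.5 m, male; f, female); points are libraries and bars the means of 2. In each panel both E11.5 points lie above both E10.5 points, and in all but Rpl10l the E13.5 points lie higher still.

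The 3 germ cell lists were counted together, and their lack of lower calls did not hold without E11.5 library 2. In the fit reported the count was 22 of 75 tested members called higher and 0 lower, with a median log2 fold change of 0.30. Without E10.5 library 1 it was 13 higher, and fitted on the 4 libraries alone, 5. The lists overlap in function, and 8, 6 and 9 of their tested members (RNA-binding and piRNA, transcription factor and meiosis lists) passed the filter only through their E13.5 levels, 1 of which was called. Because members and lists were chosen with earlier results of these data known, the count of called members is a description and no independent support.

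Outside these lists, Tuba3a, a testis-type alpha-tubulin gene, was among the genes that rose by the most, at 9.03 and 7.04 RPM at E10.5 against 32.3 and 37.3 RPM at E11.5 (log2 fold change 1.99 ± 0.18, limma, adjusted p = 2.07e-08). The near-identical gene Tuba3b was at 9.03 and 5.76 RPM at E10.5 against 20.2 and 24.8 RPM at E11.5, and how reads were split between the pair is uncertain. Slc25a31, the germ cell form of the mitochondrial ADP/ATP carrier, was at 23.0 and 21.8 RPM at E10.5 against 72.7 and 52.1 RPM at E11.5, and Cox7b2, a testis form of a cytochrome oxidase subunit, at 4.51 and 4.80 RPM at E10.5 against 11.4 and 19.9 RPM at E11.5. These rose with log2 fold changes of 1.51, 1.42 and 1.51 (limma, adjusted p = 4.49e-05, 1.43e-07 and 0.0126). Rpl39l, a retrogene-like copy of a ribosomal protein gene, was at 159.8 and 152 RPM at E10.5 against 352 and 417 RPM at E11.5, again with both E11.5 libraries well above (1.29 ± 0.11, adjusted p = 1.08e-08). Rpl10l, another such copy, chosen after its values were seen, was at 65.0 and 71.4 RPM at E10.5 against 165 and 166 RPM at E11.5. Reads of such copies can be shared with their parent genes.

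The remaining large rises were of genes with other roles. Sirt4, a mitochondrial sirtuin, was at 3.61 and 13.4 RPM at E10.5 against 24.2 and 23.1 RPM at E11.5 (log2 fold change 1.59 ± 0.36, limma, adjusted p = 0.00935), with its E10.5 libraries far apart. Smurf1, a ubiquitin ligase in BMP signalling, was at 4.51 and 10.6 RPM at E10.5 against 22.2 and 15.7 RPM at E11.5. Zbtb32, a zinc finger repressor, was at 4.97 and 6.72 RPM at E10.5 against 18.2 and 14.0 RPM at E11.5, and D7Ertd143e at 8.36 and 7.36 RPM at E10.5 against 20.9 and 28.3 RPM at E11.5. The X-linked gene Dmrtc1c2 was at 10.4 and 4.80 RPM at E10.5 against 20.2 and 17.9 RPM at E11.5. These 4 had log2 fold changes from 1.301 to 1.52. The calls of Sirt4 (adjusted p = 0.318) and Smurf1 (0.243) ended without E10.5 library 1, and that of Dmrtc1c2 (0.143) without E10.5 library 2. Smurf1 also lost its call without E11.5 library 1 (adjusted p = 0.0773). Zbtb32 lost its call without either E10.5 library or E11.5 library 1 (adjusted p = 0.0529 to 0.183), and D7Ertd143e and Cox7b2 without either E10.5 library or E11.5 library 2 (adjusted p = 0.0796 to 0.102 and 0.0798 to 0.128).

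Of 13 tested genes of the NODAL and activin pathway 3 rose and 0 fell. NODAL is a TGF-β family ligand, and the LEFTY proteins are its secreted inhibitors and its targets. Lefty2 was at 35.2 and 22.1 RPM at E10.5 against 83.5 and 68.6 RPM at E11.5, and Lefty1 at 12.6 and 22.4 RPM at E10.5 against 46.5 and 43.3 RPM at E11.5. Both genes were higher in both E11.5 libraries. The log2 fold changes were 1.41 ± 0.24 and 1.36 ± 0.25 (SE, limma, adjusted p = 0.000477 and 0.00127). At E13.5, Lefty1 was at 304 and 316 RPM in males and 0.836 and 1.10 RPM in females, and Lefty2 at 195 and 186 and 0.627 and 0.548 RPM. The sexes thus lay far apart 2 days later, while both E11.5 and both E10.5 libraries, of unstated sex, lay between them. The median log2 fold change of the 13 was 0.00. Without E10.5 library 1 the list had 1 member called, Lefty2, with Lefty1 at adjusted p = 0.0864.

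The genes that define early PGCs mostly stayed uncalled: of 15 tested, 0 were called higher and 1 lower. The 1 that fell was Ifitm3 (Fragilis), an interferon-inducible membrane protein gene of early PGCs. It was at 960.1 and 888 RPM at E10.5 against 495 and 512 RPM at E11.5 (-0.87 ± 0.10, limma, adjusted p = 1.60e-06). Prdm1, the repressor gene that directs PGC specification, was at 79.9 and 82.6 RPM at E10.5 against 66.7 and 57.2 RPM at E11.5. It was not called (-0.39 ± 0.16, limma, adjusted p = 0.157). Its groups did not overlap, which was so for 46.2% of all genes tested. Dppa3, the gene carrying the reporter, was at 2718 and 2824 RPM at E10.5 against 3145 and 3227 RPM at E11.5, also uncalled (adjusted p = 0.108). The receptor gene Kit was at 246 and 256 RPM at E10.5 against 197 and 220.4 RPM at E11.5 and Nanos3, an RNA-binding survival factor, at 14.0 and 14.7 RPM at E10.5 against 22.9 and 22.2 RPM at E11.5 (adjusted p = 0.165 and 0.224). Genes that define PGCs were thus present in all 4 libraries.

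Of 26 tested pluripotency genes 2 were called higher and 1 lower (median log2 fold change 0.08). Sox2, a core factor of pluripotency, fell from 413 and 398 RPM to 277 and 275 RPM (-0.55 ± 0.10, limma, adjusted p = 0.00171). Dppa5a, a small RNA-binding protein gene of pluripotent cells, rose from 1601 and 1511 RPM to 2044 and 2183 RPM, and Utf1, a chromatin factor gene, from 752 and 821 RPM to 995 and 966 RPM (log2 fold changes 0.44 and 0.32). Sall4, another core factor, was at 418 and 385 RPM at E10.5 against 312 and 326 RPM at E11.5, just outside the threshold (adjusted p = 0.0535). Sox2 lost its call without E10.5 library 1 (adjusted p = 0.0650), Dppa5a without either E10.5 library (0.0606 to 0.106) and Utf1 with any 1 of the 4 libraries left out (0.0664 to 0.312).

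Transcripts of red blood cells fell steeply. Of 18 measured erythroid markers 6 passed the filter and 5 of these, all globin genes, were called lower. Of the 5, 3 passed only through their E10.5 levels and so had to differ. The share called is therefore not set against all genes, and 14 of the 18 had a lower share of reads at E11.5, 0 a higher one and 4 no read at either stage. Hbb-y (chromosome 7, 103851754 to 103853207), an embryonic beta-type globin, was at 105 and 96.4 RPM at E10.5 against 5.39 and 2.28 RPM at E11.5 (log2 fold change -4.47 ± 0.37, limma, adjusted p = 5.00e-09). Pooled over the libraries of a stage this was 533 against 16 reads, a 31.2-fold ratio of read shares with an exact 95% interval of 19.02 to 55.0 that covers counting error only. Hba-x, the embryonic alpha-type globin, was at 66.8 and 77.8 RPM at E10.5 against 3.37 and 1.14 RPM at E11.5, or 391 against 9 reads (40.7-fold, 21.2 to 89.6). Hbb-bh1 was at 24.8 and 19.8 RPM at E10.5 against 3.37 and 0.285 RPM at E11.5. The adult-type Hba-a1 and Hba-a2 were at 27.5 and 18.9 RPM and at 23.0 and 14.4 RPM at E10.5, and the next day at 2.69 and 2.28 RPM and at 2.02 and 0.285 RPM. They are near-identical copies, so their split is uncertain. Hbb-b1 was at 0.903 and 3.20 RPM at E10.5 and at 0 in both E11.5 libraries and was not called (adjusted p = 0.124). The remaining markers were scarce at both stages: Alas2, Gata1 and Epor were at 0 in all 4 libraries, and Beta-s, Klf1, Slc4a1, Epb4.2, Hemgn, Tspo2, Nfe2 and Tal1 at 1 to 4 reads at E10.5. The lower shares of these last markers rest on few reads, as for Klf1 (4 against 3 reads, exact 95% interval 0.211 to 8.52). Summed over the 18 markers the level was 251.9 and 233.7 RPM at E10.5 against 17.5 and 8.54 RPM a day later, and 9.51 to 44.1 RPM at E13.5. In the separately scaled floxed controls at E11.5 it was 64.7, 46.3, 9.19 and 6.36 RPM. Hbb-bh1 lost its call without E10.5 library 1 (adjusted p = 0.0592). In bulk samples fewer cells of a type and less RNA per cell cannot be told apart.

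Mesenchyme transcripts fell at the same step. Of 26 measured mesenchyme markers 6 were tested, 4 were called lower and 0 higher. Of the 6, 5 passed the filter only through their E10.5 levels, all 4 called ones among them, so that these had to differ. Over all 26, 23 had a lower share of reads at E11.5, 2 a higher one and 1 no read at either stage. Several of the 23 rested on few reads, with a 95% interval of the ratio that held 1. Among these were Twist1 (22 against 11 reads, 0.870 to 4.28) and Pdgfrb (10 against 8 reads, 0.416 to 3.41). Col3a1 (chromosome 1, 45311538 to 45349706), a fibrillar collagen gene, was at 29.3 and 30.1 RPM at E10.5 against 0.673 and 0.854 RPM at E11.5, or 159 against 4 reads (37.2-fold, exact 95% interval 14.2 to 138). Its fall was called (-4.12 ± 0.45, limma, adjusted p = 4.83e-07). Col1a1, the main fibrillar collagen of connective tissue, was at 7.22 and 10.9 RPM at E10.5 against 0.673 and 1.71 RPM at E11.5. The smooth muscle actin gene Acta2 was at 5.87 and 9.604 RPM at E10.5 against 0 and 0.854 RPM at E11.5. Nr2f1, a nuclear receptor gene of mesenchyme named to complete the count, had a log2 fold change of -2.10. Pdgfra, the receptor gene that defines much embryonic mesenchyme, was at 4.06 and 6.08 and then 0.673 and 0.285 RPM and did not pass the filter. Col1a2, Postn, Twist2, Lum, Dcn, Meox2, Foxf1a, Osr1 and Lox, 9 of the 26, had no read at E11.5, against 2 (Col6a1 and Lox) at E10.5. The summed level was 90.3 and 103 RPM at E10.5 against 11.4 and 17.7 RPM a day later, and 11.4 to 28.2 RPM at E13.5. Without E10.5 library 1, E10.5 library 2 or E11.5 library 1, Col3a1 was the 1 member called, with Acta2 at adjusted p = 0.0552 to 0.131 and Col1a1 at 0.0565 to 0.132.

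Markers of other neighbouring cells moved less. Endothelial markers, among them Egfl7, Cldn5 and Tek, summed to 87.6 and 71.1 RPM at E10.5 against 51.9 and 56.1 RPM at E11.5, with 0 of 6 tested members called. Egfl7 itself was at 21.2 and 18.2 RPM at E10.5 against 23.6 and 17.4 RPM at E11.5. Macrophage markers summed to 11.3 and 8.64 RPM and then 6.73 and 10.8 RPM, with no member tested. Gonadal somatic and coelomic epithelium markers were low at both stages, at 21.2 and 25.0 RPM and then 12.8 and 18.5 RPM. The defining genes Wt1 and Gata4 were at 0.451 and 2.88 RPM and at 2.26 and 1.28 RPM at E10.5, and the next day at 2.02 and 0 RPM and at 1.35 and 0.569 RPM. Neural and neural crest markers summed to 58.7 and 44.8 RPM and then 68.7 and 55.8 RPM, with 0 of 4 tested members called. Hindgut and other endoderm markers summed to 6.77 and 15.05 RPM and then 12.8 and 12.5 RPM. Platelet and megakaryocyte markers were at or near 0 in all 4 libraries.

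Mesonephric epithelium markers went the other way, from 54.2 and 62.4 RPM to 84.9 and 94.5 RPM, with 2 of 6 tested members called higher and 0 lower. The mesonephros is the embryonic kidney beside the genital ridge. Lhx1, a LIM homeobox gene that is also expressed in germ cells, rose from 6.77 and 8.96 RPM to 22.9 and 24.8 RPM (1.496 ± 0.26, limma, adjusted p = 0.000904), and was at 77.1 and 80.6 RPM in E13.5 males. Cdh16, a kidney cadherin gene, rose from 0 and 0.640 RPM to 5.39 and 5.41 RPM, passed the filter only through its E11.5 levels, and was at 0 in all 4 libraries at E13.5. Pax8, a defining factor of the mesonephric tubules, was at 13.1 and 15.05 RPM at E10.5 against 11.4 and 8.83 RPM at E11.5, uncalled (adjusted p = 0.651). Cdh16 lost its call with any 1 of the 4 libraries left out (adjusted p = 0.0508 to 0.183).

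**Figure D3:**
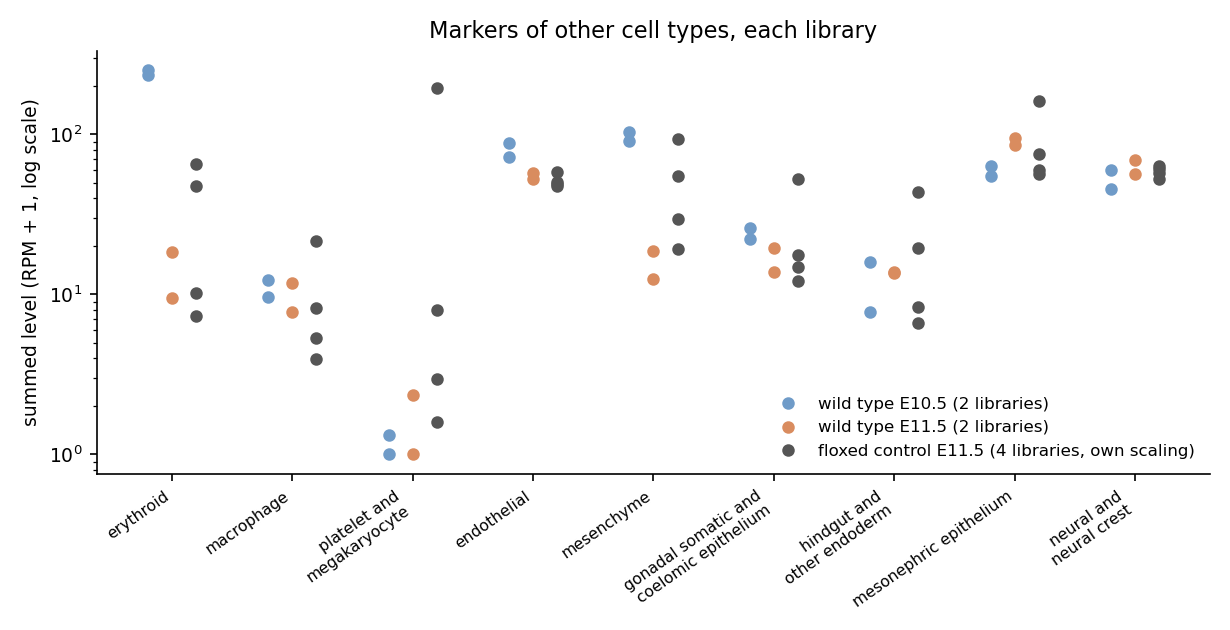
Summed level (RPM + 1, log scale) of each marker list of another cell type, 1 point per library, for wild type at E10.5 and E11.5 and for the floxed controls at E11.5, which were scaled separately. Erythroid and mesenchyme sums were 251.9 and 233.7 and 90.3 and 103 RPM at E10.5, and 17.5 and 8.54 and 11.4 and 17.7 RPM at wild-type E11.5.

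Imprinted genes are expressed mainly from the maternal or the paternal copy. Of 46 listed and measured genes 33 were tested, 9 were called lower and 0 higher, and 25 lay below 0 (median log2 fold change -0.18, against 0.02 over all genes). Mest (chromosome 6, 30733506 to 30748466), a paternally expressed hydrolase-like gene, was at 77.6 and 95.7 RPM at E10.5 against 22.9 and 21.4 RPM at E11.5 (-1.92 ± 0.18, limma, adjusted p = 3.55e-08). Igf2 (chromosome 7, 142650768 to 142666816), the paternally expressed growth factor, was at 83.5 and 85.8 RPM at E10.5 against 28.3 and 25.9 RPM at E11.5, and its maternally expressed neighbour H19 at 95.7 and 77.2 RPM at E10.5 against 22.9 and 32.2 RPM at E11.5. Both were lower in both E11.5 libraries (log2 fold changes -1.61 and -1.63, adjusted p = 2.73e-05 and 4.73e-05). Grb10, an adaptor that restrains growth signalling, was at 27.1 and 28.2 RPM at E10.5 against 6.73 and 7.97 RPM at E11.5 (-1.78). Phlda2, a maternally expressed gene that limits placental growth, was at 348 and 358 RPM at E10.5 against 149.5 and 176 RPM at E11.5 (-1.12, adjusted p = 1.38e-06), and Gnas, which encodes a G protein subunit, at 137 and 151 RPM at E10.5 against 89.6 and 91.96 RPM at E11.5. Asb4, a ubiquitin ligase adaptor gene, was at 17.6 and 14.4 RPM at E10.5 against 2.69 and 8.54 RPM at E11.5 (-1.51). The other called members, named to complete the count, were the zinc finger gene Peg3 (214 and 219.9 RPM and then 153 and 133 RPM) and the cell cycle inhibitor gene Cdkn1c (log2 fold change -0.84). Without E10.5 library 1 there were 6 called lower and without E10.5 library 2 there were 5. Gnas lost its call without E10.5 library 2 (adjusted p = 0.0678), and Asb4 without either E10.5 library or E11.5 library 1 (adjusted p = 0.0595 to 0.151).

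Several of these genes are also strongly expressed in embryonic mesenchyme, whose markers fell in the same libraries. Of 26 markers 23 had a lower share of reads, several of them on few reads. The markers summed to 90.3 to 103 RPM at E10.5 and 11.4 to 17.7 RPM at E11.5. The floxed controls at E11.5 differed among themselves in that sum, at 18.2, 92.1, 28.7 and 54.2 RPM in libraries 1 to 4. Igf2 was at 1.47, 30.0, 16.4 and 13.9 RPM, Mest at 21.2, 108, 38.3 and 48.3 RPM and Grb10 at 5.89, 21.3, 12.0 and 17.9 RPM in the same order. These 3 were highest in control 2 and lowest in control 1, as was the marker sum. So were Dazl, at 119.8, 380, 119.96 and 290 RPM, and Mael, at 28.3, 66.8, 36.6 and 61.7 RPM, germ cell genes that rose. Ddx4 and Tcfl5, which also rose, were highest in control 2 but lowest in control 3. H19 was at 3.24, 7.96, 10.7 and 18.1 RPM, lowest in control 1 but highest in control 4. Phlda2, at 136, 162, 157 and 143 RPM there, was also highest in control 2 and lowest in control 1. Peg3, at 179.5, 136, 175 and 210.3 RPM, was lowest in control 2 and highest in control 4. Both lay within narrower ranges. At wild-type E13.5 the marker sum was 11.4 and 17.3 RPM in males and 24.7 and 28.2 RPM in females, where Mest was at 149.96 and 137 RPM and 22.6 and 29.9 RPM, Igf2 at 4.34 and 2.82 RPM and 80.9 and 75.1 RPM, and Phlda2 at 5.34 and 4.93 RPM and 558 and 508 RPM. The E13.5 libraries are of another stage, and these values are only set side by side. The part of mesenchyme transcripts in the lower levels at E11.5 was not tested.

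**Figure D4:**
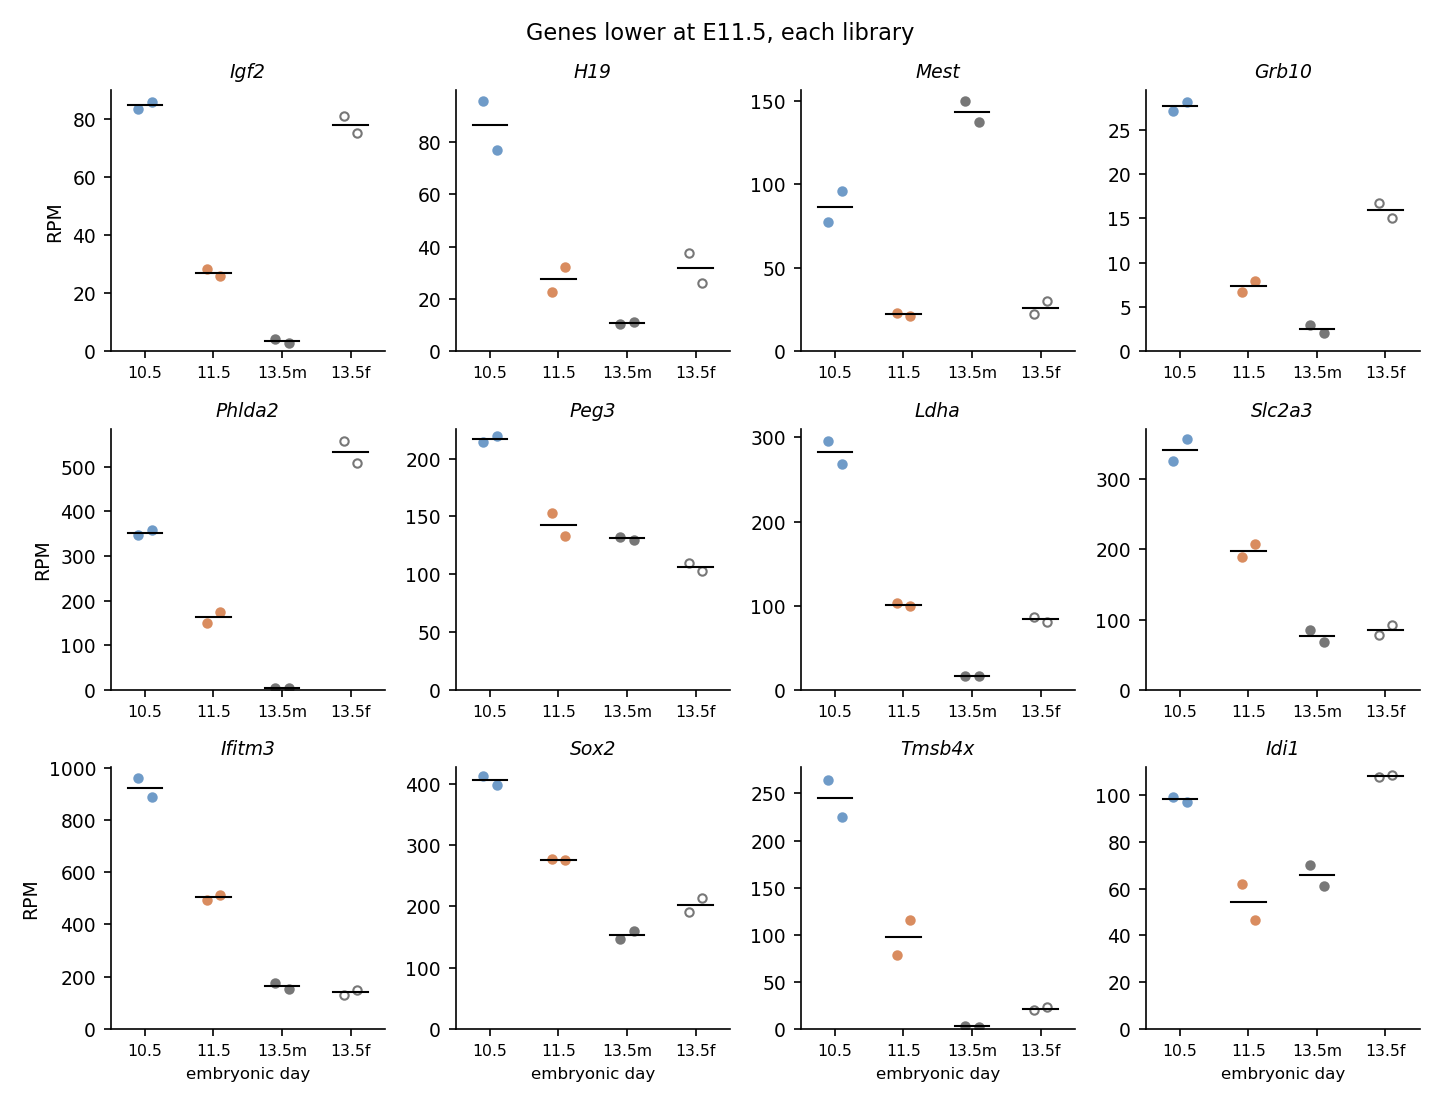
Level in RPM of 12 genes that fell, in each wild-type library of the 3 stages (E13.5 m, male; f, female); points are libraries and bars the means of 2. Mest, Igf2 and Phlda2 differ between the sexes at E13.5, while Ifitm3, Slc2a3 and Tmsb4x lie lower still in both.

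Other large falls were those of Ednra, the endothelin A receptor gene, at 25.7 and 24.3 RPM at E10.5 against 6.06 and 4.56 RPM at E11.5, and of Tpm4, a tropomyosin gene, at 26.2 and 22.1 RPM at E10.5 against 8.08 and 3.99 RPM at E11.5. Fndc3c1, an X-linked fibronectin domain gene, was at 22.1 and 19.8 RPM at E10.5 against 5.39 and 1.42 RPM at E11.5. Nrp2, a neuropilin receptor gene of migrating and vascular cells, was at 16.3 and 19.21 RPM at E10.5 against 5.39 and 6.26 RPM at E11.5. Their log2 fold changes ran from -2.48 (Fndc3c1) to -1.45 (Nrp2). Ednra, Tpm4 and Nrp2 are known from mesenchyme or vessels as well. Mesenchyme markers summed to 90.3 to 103 and endothelial markers to 71.1 to 87.6 RPM at E10.5, and to 11.4 to 17.7 and 51.9 to 56.1 RPM a day later, and their part was not tested. In the floxed controls Ednra was at 10.9, 3.18, 8.54 and 5.42 RPM. Aldh18a1, which makes a precursor of proline, was at 23.0 and 23.4 RPM at E10.5 against 10.8 and 6.55 RPM at E11.5. Zmiz1, a transcriptional coregulator, was at 13.1 and 20.2 RPM at E10.5 against 7.41 and 3.13 RPM at E11.5, the kelch protein gene Ipp at 23.0 and 24.3 RPM at E10.5 against 10.8 and 5.98 RPM at E11.5, and Bivm at 19.4 and 16.6 RPM at E10.5 against 3.37 and 10.2 RPM at E11.5. These 4 had log2 fold changes from -1.55 to -1.36. Every gene of this paragraph lost its call without at least 1 library. Ednra (adjusted p = 0.0522 to 0.123), Tpm4 (0.0586 to 0.123), Fndc3c1 (0.0510 to 0.0881) and Aldh18a1 (0.0750 to 0.0989) did so without either E10.5 library or E11.5 library 2, Ipp without either E10.5 library (0.0519 to 0.0531), and Bivm without those or E11.5 library 1 (0.0806 to 0.160). Zmiz1 did so without E10.5 library 2 or E11.5 library 2 (0.100 to 0.154), and Nrp2 with any 1 of the 4 libraries left out (0.0814 to 0.227).

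Of 20 tested glycolysis genes 4 were called lower and 1 higher. Ldha (chromosome 7, 46842274 to 46855627), which makes lactate from pyruvate, was at 296 and 268 RPM at E10.5 against 103 and 99.6 RPM at E11.5, with the libraries of each stage close together (-1.47 ± 0.14, limma, adjusted p = 4.96e-08). In the floxed controls it was at 77.1, 98.5, 115 and 74.2 RPM. The glucose transporter gene Slc2a3 was at 325 and 356 RPM at E10.5 against 189 and 207 RPM at E11.5, and the lactate transporter gene Slc16a1 at 98.9 and 105 RPM at E10.5 against 63.3 and 66.9 RPM at E11.5. Tpi1, an enzyme of the middle of the pathway, was at 119 and 115 RPM at E10.5 against 76.8 and 74.6 RPM at E11.5. These 3 fell, with log2 fold changes of -0.78, -0.64 and -0.62. Gpi1, an early enzyme of the pathway, rose from 246 and 253 RPM to 335 and 301 RPM (log2 fold change 0.34, adjusted p = 0.0484). The median of the 20 was -0.11. With E10.5 library 1 or library 2 left out, the members called lower were Ldha and Slc2a3. Slc16a1 lost its call in both cases (adjusted p = 0.0723 to 0.106), Tpi1 in both and without E11.5 library 2 (0.0674 to 0.175), and Gpi1 without either E10.5 library or E11.5 library 1 (0.164 to 0.254).

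Among 30 tested hypoxia response genes outside glycolysis, 1 was called lower and 0 higher, near the background. It was Hif1a, the oxygen-sensitive subunit of the hypoxia-inducible factor, at 116 and 124 RPM at E10.5 against 90.9 and 66.9 RPM at E11.5 (-0.61, limma, adjusted p = 0.0109). Of 49 oxidative phosphorylation genes 2 were called higher and 0 lower, and 39 lay above 0 (52.2% of all genes tested did), with a median of 0.13. The ATP synthase gene Atp5o rose from 498 and 461 RPM to 626 and 642 RPM and the complex I gene Ndufb10 from 84.9 and 77.5 RPM to 111 and 128 RPM. Without E10.5 library 2 neither was called (adjusted p = 0.116 and 0.156). Ndufb10 and Hif1a also lost their calls without E10.5 library 1 (adjusted p = 0.0891 and 0.0954) or E11.5 library 2 (0.117 and 0.146), and Hif1a without E10.5 library 2 (0.132).

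Of 22 tested cholesterol synthesis genes 5 were called lower and 0 higher, and 20 lay below 0 (median log2 fold change -0.28). Over all genes tested 1.97% were called lower and 2.31% higher, 52.2% lay above 0 and the median was 0.02. Idi1, an isomerase of the isoprenoid steps, was at 99.3 and 97.3 RPM at E10.5 against 62.0 and 46.4 RPM at E11.5 (-0.86 ± 0.15, limma, adjusted p = 0.000904). Sc4mol, a sterol demethylase, and Hmgcs1, an enzyme of the early steps, were at 66.8 and 50.3 RPM and at 131 and 142 RPM at E10.5, and the next day at 37.7 and 27.6 RPM and at 111 and 89.1 RPM. These 2 fell with log2 fold changes of -0.82 and -0.45 (adjusted p = 0.00882 and 0.0433), and neither group of libraries overlapped the other. There were 2 members called lower without E10.5 library 1, and 3 without E10.5 library 2 or E11.5 library 2. Sc4mol lost its call without E10.5 library 1 or E11.5 library 2 (adjusted p = 0.0983 to 0.224), and Hmgcs1 without either E10.5 library or E11.5 library 2 (0.151 to 0.252).

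Of 21 tested genes of migration, adhesion and guidance, 3 were called lower and 0 higher, and 17 lay below 0 (median log2 fold change -0.29). Over all genes tested 1.97% were called lower and 2.31% higher, 52.2% lay above 0 and the median was 0.02. Tmsb4x, which encodes the actin-binding peptide thymosin beta, was at 265 and 225 RPM at E10.5 against 78.8 and 116 RPM at E11.5 (-1.34 ± 0.21, limma, adjusted p = 0.000186). It is abundant in blood and mesenchyme too, whose summed marker levels were 233.7 to 251.9 and 90.3 to 103 RPM at E10.5 and 8.54 to 17.5 and 11.4 to 17.7 RPM at E11.5, and their part was not tested. Ezr and Rdx, which link actin to the cell membrane, were at 171 and 160.1 RPM and at 130.0 and 139 RPM at E10.5, and the next day at 109 and 95.1 RPM and at 112 and 83.7 RPM. Both fell (log2 fold changes -0.69 and -0.46). Itgb3, an integrin gene, was at 40.6 and 42.6 RPM at E10.5 against 63.3 and 55.5 RPM at E11.5, without a call. Ezr lost its call without E10.5 library 1 (adjusted p = 0.0935), which left Tmsb4x alone, and Rdx without either E10.5 library or E11.5 library 2 (0.153 to 0.289).

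Of 11 tested retinoic acid genes 2 were called lower and 0 higher. Aldh1a2, which makes retinoic acid in mesoderm, was at 10.8 and 23.7 RPM at E10.5 against 4.04 and 4.84 RPM at E11.5 (-1.66 ± 0.37, limma, adjusted p = 0.00815). Aldh1a2 is a gene of mesenchyme and mesothelium, and mesenchyme markers summed to 90.3 to 103 RPM at E10.5 and 11.4 to 17.7 RPM a day later. At E13.5 Aldh1a2 was at 17.4 and 20.1 RPM in males and 6.90 and 4.66 RPM in females. In floxed controls 1 to 4 it was at 7.06, 6.96, 7.22 and 14.4 RPM. The mesenchyme marker sum there was 18.2, 92.1, 28.7 and 54.2 RPM. The part of mesenchyme transcripts was not tested. Rara, a receptor gene, was at 3.16 and 3.84 RPM at E10.5 against 6.73 and 7.97 RPM at E11.5, without a call. Aldh1a2 lost its call without E10.5 library 2 (adjusted p = 0.203), which left 0 members called by limma.

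Few cell cycle genes were called. Of 30 S phase genes 2 were called lower, Pcna, the sliding clamp of DNA replication, at 1233 and 1239 RPM at E10.5 against 879.5 and 974 RPM at E11.5, and Mcm4, of the replicative helicase, at 351 and 345 RPM at E10.5 against 281 and 237 RPM at E11.5. Of 30 genes of the G2 and M phases 1 was called lower, the topoisomerase gene Top2a, at 619.8 and 593 RPM at E10.5 against 463 and 473 RPM at E11.5. No member of either list was called higher, and the medians were -0.05 and 0.01. These 3 falls were under 1.5-fold (log2 fold changes -0.42, -0.43 and -0.37, limma, adjusted p = 0.00407, 0.0148 and 0.0125). Among 13 cyclin and inhibitor genes the G1 cyclin gene Ccnd1 was called lower, at 5.42 and 5.76 RPM and then 0 and 3.42 RPM, that is, close to the floor. None of these 4 calls held without E10.5 library 1 (adjusted p = 0.0841, 0.157, 0.169 and 0.205) or without E10.5 library 2 (0.0722, 0.108, 0.0786 and 0.190). Mcm4 also lost its call without E11.5 library 2 (0.138) and Ccnd1 without E11.5 library 1 (0.403).

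The p53 and apoptosis list had 1 of 25 tested members called higher and 1 lower, with 21 above 0 and a median log2 fold change of 0.32. Over all genes tested 2.31% were called higher and 1.97% lower, 52.2% lay above 0 and the median was 0.02. The counts of called members were near those shares. Trp53 itself, the gene of the tumour suppressor, fell from 361 and 335 RPM to 229 and 264 RPM (-0.50 ± 0.12, limma, adjusted p = 0.0109). Its target gene Ccng1 rose from 42.9 and 50.6 RPM to 85.5 and 70.3 RPM (0.72 ± 0.17, adjusted p = 0.0109). Other known targets were not called, with Sesn2 at 14.9 and 13.4 RPM at E10.5 against 24.9 and 25.6 RPM at E11.5 and Cdkn1a at 26.6 and 21.4 RPM at E10.5 against 26.9 and 45.6 RPM at E11.5. Trp53 lost its call without either E10.5 library or E11.5 library 1 (adjusted p = 0.0665 to 0.177), and Ccng1 without E10.5 library 1 or E11.5 library 1 (0.0890 to 0.176). Of 17 immediate-early and stress genes, which can record handling of cells, 2 were called lower, the chaperone genes Hspa5 (504 and 529 and then 399 and 356 RPM) and Hsph1 (268 and 275 and then 205 and 188 RPM). The shares over all genes tested were 1.97% lower and 2.31% higher. The co-chaperone gene Dnajb1 was called higher (165 and 168 and then 225 and 218 RPM), and Fos, an immediate-early gene, was at 8.13 and 6.08 RPM at E10.5 against 13.47 and 13.7 RPM at E11.5, without a call. Hspa5 and Hsph1 lost their calls without either E10.5 library or E11.5 library 2 (adjusted p = 0.0596 to 0.104 and 0.0598 to 0.104), and Dnajb1 with any 1 of the 4 libraries left out (0.0562 to 0.188).

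Several gene groups that act in germ cells had 0 members called by limma as fitted here. Of 22 tested genes of DNA methylation and demethylation 1 was higher and 3 were lower at an unadjusted p under 0.05 (median log2 fold change -0.07), and limma voom on recovered reads called 1 lower. Of 29 genes of histone-modifying enzymes 3 were higher and 4 lower at an unadjusted p under 0.05 (median -0.09), and voom called 1 lower. The largest difference in the first list by p was that of Gadd45a, a stress gene linked to demethylation, at 103 and 95.4 RPM at E10.5 against 65.3 and 52.7 RPM at E11.5 (limma, adjusted p = 0.0523). Tdg, the glycosylase that removes oxidised methylcytosine, was at 47.8 and 45.1 RPM at E10.5 against 31.7 and 29.6 RPM at E11.5, and Ezh2, the Polycomb methyltransferase, at 188 and 212 RPM at E10.5 against 162 and 138 RPM at E11.5. Of 15 BMP response genes 0 were higher and 4 lower at an unadjusted p under 0.05, of 10 WNT response genes 0 and 1, and voom called 0 of either. Other settings of limma called some members: without E11.5 library 1, 2 BMP, 1 WNT and 2 histone-modifying genes were called lower, without E11.5 library 2, 1 BMP gene lower and 1 histone-modifying gene higher, and with median-ratio scaling 3 histone-modifying genes and 1 DNA methylation gene lower. Id2, a BMP target, was at 19.4 and 15.4 RPM at E10.5 against 8.76 and 8.26 RPM at E11.5 (adjusted p = 0.0904), and Axin2, a WNT target, at 5.87 and 5.44 RPM at E10.5 against 10.8 and 5.41 RPM at E11.5. Of 15 FGF and ERK response genes 1 was called lower, beside 1.97% of all genes tested. It was the feedback inhibitor Spred1, at 65.5 and 83.9 RPM at E10.5 against 47.1 and 42.4 RPM at E11.5 (limma, adjusted p = 0.0136). Spred1 lost its call without E10.5 library 2 or E11.5 library 2 (log2 fold changes -0.54 and -0.64). All 39 clustered Hox genes listed were measured and none passed the filter of 5 RPM in 2 libraries. A median below 0 in uncalled genes does not show a fall, and the depth of 1484740 reads in E11.5 library 1 limits what could be detected among low genes.

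**Figure D5:**
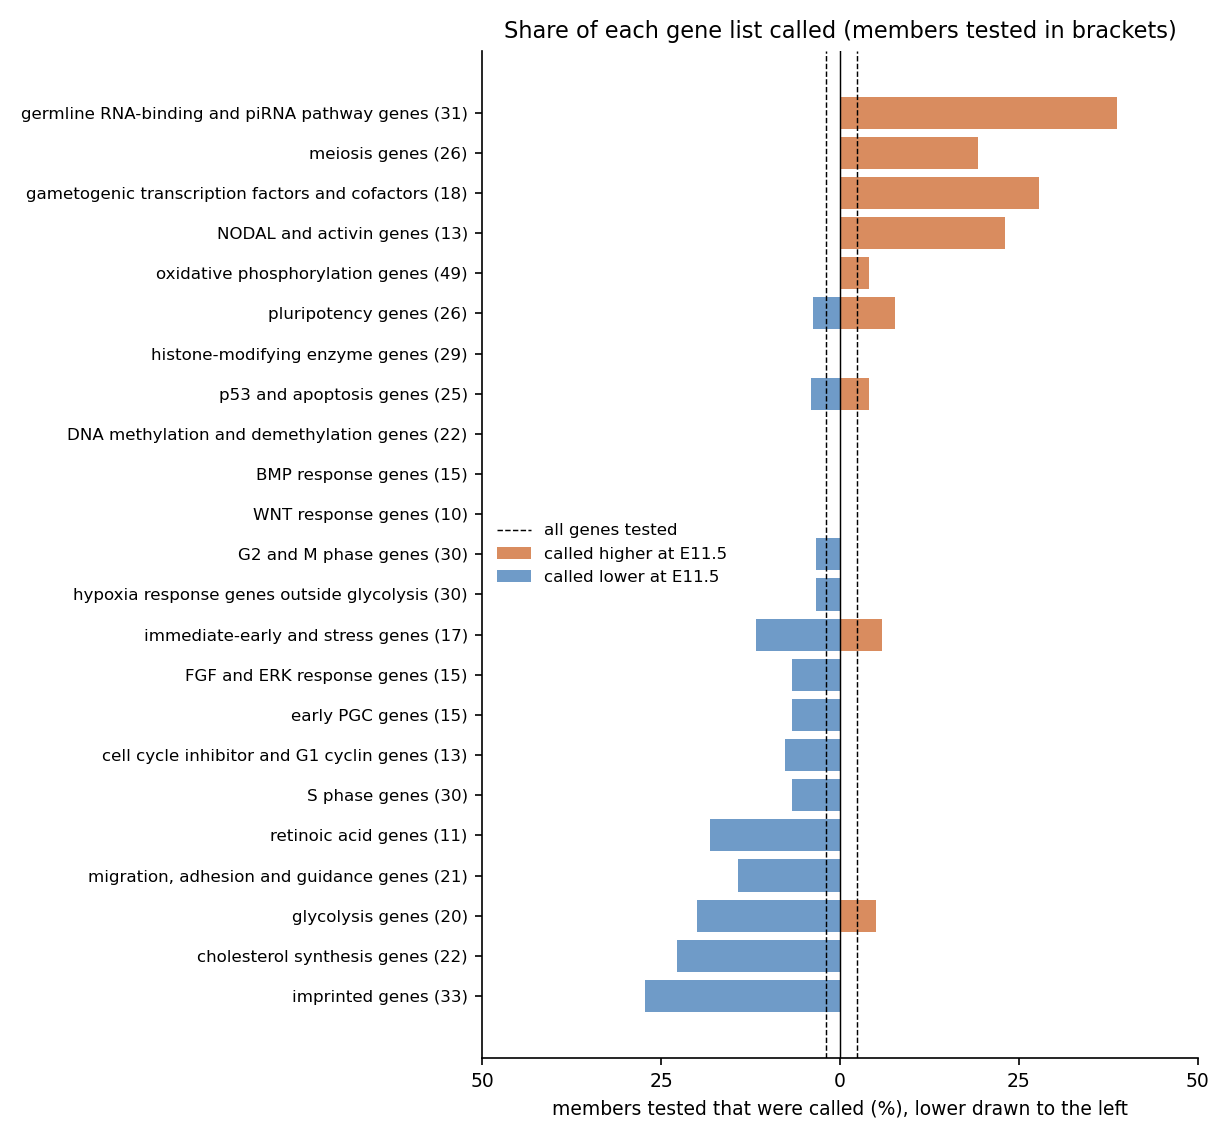
Share (%) of the tested members of each germ cell or pathway list that was called at E11.5 against E10.5, higher to the right and lower to the left, ordered by the number called higher less the number called lower, with the number tested in brackets. Dashed lines mark the shares over all genes tested, 2.31% higher and 1.97% lower.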

How the data were processed

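Expression was measured by 3′ RNA sequencing of cDNA made from 1 ng of RNA with 11 PCR cycles, per the labels. Per the submitters' processing notes, cutadapt 1.3, TopHat 1.4.1 and Cufflinks 2.2.0 were used with the mm10 build. The deposited values of 26219 genes are in RPM, and were used as deposited; 92 ERCC spike-in rows were left out. Recovered wild-type depths were 1484740 to 4782800 reads, 99.67% to 99.77% of positive values being whole multiples of a step within 0.05 reads.

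Genes with at least 5 RPM in 2 of 8 wild-type libraries were fitted as log2(RPM + 1) by limma 3.58.1 in R 4.3.3 (lmFit, eBayes with a trend), E11.5 against E10.5, called at Benjamini-Hochberg adjusted p under 0.05. Fold changes on this scale understate those of low genes. The method was tested on simulated data. Members and lists were chosen with earlier results of these data known, and lists were not tested as sets. Named by rule were Prdm1, the 15 largest rises and falls among called genes whose 4 libraries averaged 10 RPM or more and whose groups did not overlap (predicted, unnamed and listed marker genes skipped), up to 6 members of a pathway list by smallest p, all erythroid markers and the 6 highest members of other marker lists. RefSeq held 96.7% of the genes tested. Replicate correlations across genes were 0.978 (E10.5) and 0.969 (E11.5), and 0.959 to 0.965 between stages. Intervals cover counting error only. Y-linked genes were not analysed here, and some genes counted in the lists are not reported here by name.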

Additional observations from a re-analysis of the deposited data

How the results depend on the processing

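The count of genes called (460, with 248 higher, 212 lower and 162 at least 2-fold) was recomputed under 17 alternatives. It was 80 (39 higher, 41 lower, 54 at least 2-fold) with no filter on low values, 27 (11, 16, 27) with no variance trend, 279 (153, 126, 113) with array quality weights, 79 (30, 49, 42) on only the 4 libraries and 901 (493, 408, 246) at an adjusted p under 0.1. With a pseudocount of 10 it was 540 (270, 270, 30), with 0.1 it was 340 (197, 143, 132), with a filter at 20 RPM 485 (281, 204, 103), with median-ratio scaling 492 (212, 280, 174) and with quantile scaling 453 (237, 216, 159). Limma voom on recovered reads, run in place of edgeR because the values are RPM and some are fractional, gave 550 (265, 285, 146). Leaving out 1 library gave 105 to 486 called, 73 to 206 higher, 32 to 282 lower and 63 to 225 at least 2-fold, the lone library of a stage being taken to vary like the other groups. The share of higher calls was 53.9% in the fit reported, 43.1% with median-ratio scaling, 40.7% with no trend, 38.0% on the 4 libraries and 69.5% and 70.1% without E10.5 library 1 or 2.

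Replicate numbers are shared across stages, but same-numbered libraries did not deviate together (correlation 0.008 between E10.5 and E11.5, from -0.031 to 0.033 over all pairs of groups). With the replicate number as a block, 48 genes (21 higher, 27 lower, 34 at least 2-fold) were called on the 4 libraries and 559 (301, 258, 185) on all 8. Of the 86 called genes named by rule, 13 kept their call under all 17 alternatives, 73 lost it under at least 1 and 0 changed direction. The 13 were Dazl, Tuba3a, Mael, Rpl39l, Mest, Grb10, Igf2, Ldha, Tcfl5, Hba-x, Hbb-y, Hba-a1 and Col3a1. Among them, Hba-x and Col3a1 passed the filter only through their E10.5 levels and so had to differ. Their kept calls are therefore no sign of robustness.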

Other observations

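Some gene groups were noticed among the called genes after their values were seen, and are given as values only. Of 75 tested genes of mitochondrial ribosomal proteins 6 were called higher (Mrpl34, Mrpl41, Mrps12, Mrps16, Mrps24 and Mrps26) and 0 lower, 59 lay above 0, and the median log2 fold change was 0.18. Mrps24 was at 89.8 and 117 RPM at E10.5 against 226 and 201 RPM at E11.5 and Mrps16 at 103 and 109 RPM at E10.5 against 191 and 179.6 RPM at E11.5. Iron transport genes that fell were Tfrc, the transferrin receptor, at 272 and 207 RPM at E10.5 against 114 and 106 RPM at E11.5, and Slc40a1, the iron exporter, at 82.2 and 71.1 RPM at E10.5 against 30.3 and 28.2 RPM at E11.5 (limma, adjusted p = 1.38e-06 and 0.0225). Both are also genes of the red cell lineage or of iron-handling cells, and erythroid markers summed to 233.7 to 251.9 RPM at E10.5 and 8.54 to 17.5 RPM at E11.5. Their part was not tested. Gpat2, a germ cell gene of mitochondrial membranes linked to piRNA, was at 27.5 and 35.2 RPM at E10.5 against 68.7 and 74.9 RPM at E11.5, and Cpeb1, a regulator of stored messages in oocytes, at 18.1 and 17.0 RPM at E10.5 against 49.2 and 32.2 RPM at E11.5. Both rose (log2 fold changes 1.18 and 1.14).

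On the X chromosome 17 of 408 tested genes were called higher (4.17%) and 15 lower (3.68%), with a median log2 fold change of -0.05. On autosomes 223 of 9991 were called higher (2.23%) and 188 lower (1.88%), with a median of 0.02. Xist, the RNA that coats the inactive X chromosome, was at 2.26 and 0.320 RPM at E10.5 and 1.35 and 1.42 RPM at E11.5. The sex of the embryos is not given, so a different mix of sexes and a change in X-linked expression cannot be told apart.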
